A study of Mus musculus with 6 samples.

Results

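The genes described are 41 transcripts that mark T lymphocytes and natural killer (NK) cells or act in them, taken by name from a list. All 41 were found among the 23381 gene symbols of a table of tumour RNA. The list covers the T cell receptor and its CD3 chains, coreceptors, signalling proteins, costimulatory receptors, transcription factors, NK receptors, effector genes and interleukin 2 receptor chains, together with Rgs1 and Itm2a.

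Each tumour arose from 500000 cells of the mouse mammary carcinoma line 4T1 that had been injected into the inguinal mammary fat pad of Balb/c mice aged 10 weeks. Once tumours were present, 1 group received Vismodegib at 2 mg per mouse and the other group received DMSO, the vehicle, each 3 times a week over 3 weeks. Vismodegib binds Smoothened and so blocks the Hedgehog signalling pathway. The comparison asks how the drug changed the RNA of the whole tumour, host cells included, with 3 libraries labelled Vismodegib and 3 labelled DMSO. Since the labels do not say that each sample came from an animal of its own, p-values here cover only the spread between samples.

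A conventional T cell recognises peptide bound to MHC through a receptor of an alpha and a beta chain, whose constant parts are encoded by Trac, Trbc1 and Trbc2, and signals through the associated CD3 chains. The coreceptors CD4 and CD8 bring the kinase Lck to the receptor, and Zap70 and the adaptor Lat carry the signal on. NK cells lack that receptor and use activating and inhibitory surface receptors instead. In tumours both kinds of cell are known for killing malignant cells through granules, Fas ligand and interferon gamma, and regulatory T cells with the factor Foxp3 are known for restraining them.

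Most of these transcripts were scarce, and for all but 2 the Vismodegib and DMSO libraries overlapped. The exceptions were Rgs1 and Itm2a. Each was higher in all 3 Vismodegib libraries than in all 3 DMSO libraries, by 4.08-fold and 4.18-fold in mean RPKM, although neither passed the test adjusted over all genes. Values are RPKM, reads scaled to transcript length and to the total of the library, so that levels of different genes can be set side by side per length. The depth recovered from the steps in the values was 34800000 to 58000000 reads per library. In bulk tumour RNA, fewer cells of a type and less RNA per cell cannot be told apart.

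Only 5 of the 41 genes averaged 10 RPKM or more over the 6 libraries, namely Gata3, Thy1, Trbc1, Nkg7 and Trbc2, and 18 averaged at least 1 RPKM. Gata3 and Thy1 are not restricted to lymphocytes, since Gata3 is also a factor of mammary luminal epithelium and Thy1 is also a surface protein of fibroblasts. The defining T cell chain Cd3e stayed under 1 RPKM in every library. Means of the 16 genes below the filter of 0.5 RPKM lay between 0.0399 and 0.459 RPKM. Reads per gene were estimated from RPKM, depth and the longest annotated transcript. Of these 16, Cd27, Cd28, Klrb1c, Klrg1 and Foxp3 fell under 3 such reads in at least 1 library and are near zero there.

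**Figure D1:**
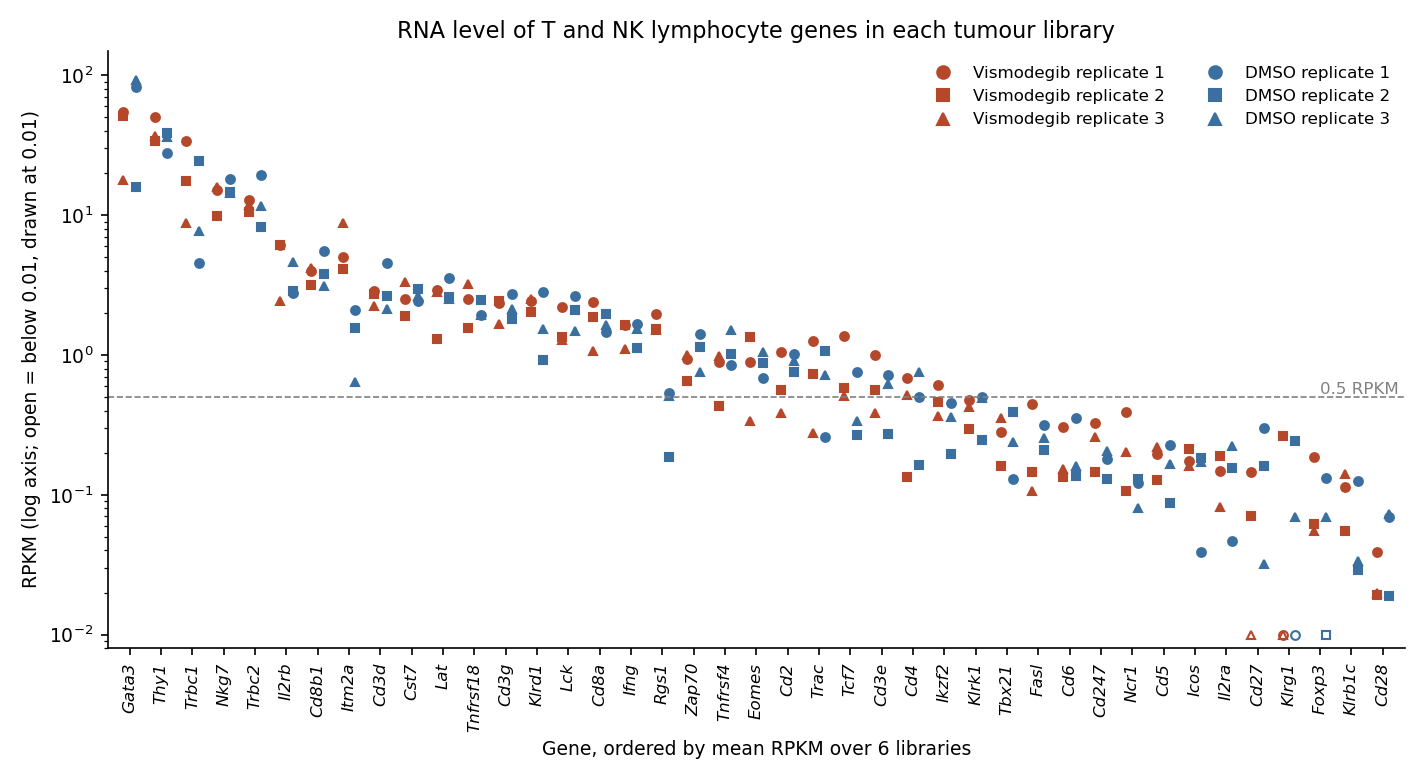
RPKM (log axis) of the 41 genes in each library, with Vismodegib in red, DMSO in blue, marker shape for the replicate number and open markers for values below 0.01 RPKM. The order runs from Gata3, with a mean of 52.6 RPKM, to Cd28, with a mean of 0.0399 RPKM, and the groups are apart only for Rgs1 and Itm2a.

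With limma on log2(RPKM + 0.5), 25 of the 41 genes had a mean of at least 0.5 RPKM and were tested. At an adjusted p under 0.05, 0 of the 25 passed, against 0.0% of the 11818 genes tested. At an unadjusted p under 0.05, 2 passed, Rgs1 and Itm2a, both higher in Vismodegib, where the background was 1.94% for higher genes and 2.25% for either direction. The same 2 were the tested genes whose groups did not overlap, against 5.03% of all tested genes in either direction and 4.29% in the higher direction. Of the 16 genes below the filter, 0 had groups that did not overlap, against 5.57% of all genes below it, and their exact permutation p-values ran from 0.2 to 1, with 8 differences above 0 and 8 below. The filter took the mean over all 6 libraries, and 2 of the 25 tested genes, Rgs1 and Tcf7, reached it only through their Vismodegib mean. Since such genes had to differ to be tested, these counts describe the genes that passed and support nothing further.

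Directions were mixed. Of the 25 tested genes, 12 had differences above 0 and 13 below, while 58.4% of all tested genes were above 0. Their median difference was -0.04 on the log2 scale, against 0.05 for all tested genes. Differences of the 23 genes other than Rgs1 and Itm2a ran from -0.43 to 0.83, and 22 of these 23 lay within 0.5 of 0.

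Rgs1 encodes a protein that speeds GTP hydrolysis by G proteins and so dampens signals from chemokine receptors in lymphocytes (ENSMUSG00000026358.13, mm10 chr1:144242296-144249242, minus strand). Replicates 1, 2 and 3 had 1.97, 1.54 and 1.51 RPKM in Vismodegib, and 0.534, 0.186 and 0.509 RPKM in DMSO. The lowest Vismodegib library was above the highest DMSO library, and the 3 Vismodegib libraries lay close together. Means were 1.67 ± 0.255 RPKM in Vismodegib and 0.410 ± 0.194 RPKM in DMSO (SD, n = 3 each). Its log2 difference was 1.27 (SE 0.27, 95% interval 0.67 to 1.88), with adjusted p = 1 by limma and a two-sided exact permutation p = 0.1, the smallest that 3 libraries against 3 allow. By unadjusted p it ranked 5 among all 11818 genes. Its DMSO mean lay below the filter of 0.5 RPKM, so that Rgs1 entered the test only through its level in Vismodegib.

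Itm2a encodes a transmembrane protein that in the mouse is made by thymocytes and activated T cells, and also in muscle and cartilage (ENSMUSG00000031239.5, mm10 chrX:107397099-107403376, minus strand). Replicates 1, 2 and 3 had 5.04, 4.11 and 8.76 RPKM in Vismodegib, and 2.08, 1.56 and 0.638 RPKM in DMSO. Vismodegib replicate 3 was the highest library and DMSO replicate 3 the lowest, and the groups did not overlap. Its means were 5.97 ± 2.46 RPKM in Vismodegib and 1.43 ± 0.732 RPKM in DMSO (SD, n = 3 each). The log2 difference was 1.76 (SE 0.39, 95% interval 0.88 to 2.64), with adjusted p = 1 by limma and exact permutation p = 0.1. Itm2a ranked 8 by unadjusted p.

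Rgs1 and Itm2a rested on an estimated 37.8 to 511 and 45.05 to 886 reads per library, and neither overlaps another annotated gene. Over 17 other settings the Rgs1 difference lay between 0.93 and 1.88 and that of Itm2a between 1.42 and 2.13. Both passed the adjusted threshold only with estimated library weights, with adjusted p = 0.0156 for Rgs1 and 0.0107 for Itm2a. That fit gave DMSO replicate 3 a weight of 7.28 and DMSO replicates 1 and 2 weights of 0.32 each, and in it 420 of all genes passed. Over the 17 settings adjusted p ranged up to 1 for both genes.

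The levels of other cell types were read beside these 2 genes. Skeletal muscle markers summed to 68.2 to 134 RPKM in Vismodegib and 8.23 to 123 RPKM in DMSO, overlapping, with 5 of 5 tested markers above 0, a median difference of 2.14, Tnnt3 higher without overlap at 1.50 and Pvalb at 0 in at least 1 library. Lymph node stroma markers summed to 2.02 to 2.38 RPKM in Vismodegib and 0.154 to 1.21 RPKM in DMSO over 4 genes, without overlap, with Ccl19 and Madcam1 at 0 in at least 1 library. Only the sum was apart, since each of the 4 genes overlapped between the groups. Of these, Ccl21a and Cxcl13 were tested, and both reached the filter only through Vismodegib. B cell and follicle markers summed to 1.27 to 4.24 RPKM in Vismodegib and 1.91 to 7.73 RPKM in DMSO, with Ms4a1, Pax5, Blk and Fcrla at 0 in at least 1 library. All 3 tested B cell and follicle markers had differences below 0, with a median of -0.17. Fibroblast markers summed to 58.4 to 139 RPKM in Vismodegib and 47.5 to 66.2 RPKM in DMSO, with 7 of 7 above 0, a median difference of 0.74 and Lum higher without overlap at 1.33. Adipocyte markers summed to 8.26 to 29.8 RPKM in Vismodegib and 4.74 to 15.0 RPKM in DMSO, with 4 of 4 tested above 0, 3 of which reached the filter only through Vismodegib, a median of 1.22, Lpl higher without overlap at 1.27, and Adipoq and Lep at 0 in at least 1 library. Endothelial markers summed to 46.5 to 112 RPKM in Vismodegib and 29.7 to 177 RPKM in DMSO, with 4 of 4 tested above 0 and a median of 0.43. In these lists 0 genes passed the adjusted threshold, and 2 fibroblast, 2 adipocyte and 1 muscle marker had an unadjusted p under 0.05, against 2.25% of all tested genes. Differences above 0 made up 58.4% of all tested genes, and 4.29% of them were higher in Vismodegib without overlap. The part of these cells in the Rgs1 and Itm2a differences was not tested.

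Read against the mean log2 level of 10 genes shared by leucocytes, Ptprc among them, the difference was 1.21 for Rgs1 and 1.69 for Itm2a, and in both the groups stayed apart. That mean was 3.73, 3.05 and 3.43 in Vismodegib and 3.68, 2.96 and 3.35 in DMSO replicates 1, 2 and 3. It was thus close between the groups, so that subtracting it could change these differences little. The share of all genes with groups apart on this scale was not computed. The other 23 tested genes overlapped between the groups on this scale too. Those leucocyte genes summed to 144 to 277 RPKM in Vismodegib and 155 to 320 RPKM in DMSO, with 5 of 10 above 0 and 5 below. Macrophage markers summed to 806 to 2727 RPKM in Vismodegib and 1235 to 2156 RPKM in DMSO. Most of that sum was C1qa alone, at 606 to 2284 RPKM in Vismodegib and 810 to 1722 RPKM in DMSO. Of the 10 macrophage markers, 3 had differences above 0 and 7 below, with a median of -0.22. Neutrophil markers summed to 15.5 to 108 RPKM in Vismodegib and 25.0 to 221 RPKM in DMSO. All 7 tested neutrophil markers had differences below 0, with a median of -0.45. Of all tested genes, 58.4% were above 0.

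Gata3, a zinc finger factor that binds GATA sites, is on the list as a factor of T helper and innate lymphoid cells, and the promoter of Itm2a holds 1 match to a GATA word. The 250 bases before the Itm2a start site in RefSeq (GRCm38.p6 chrX:107403361-107403610, minus strand) are shown because Itm2a had the largest difference of the 41 genes. Capitals mark the match, 228 bases before the start.
Itm2a: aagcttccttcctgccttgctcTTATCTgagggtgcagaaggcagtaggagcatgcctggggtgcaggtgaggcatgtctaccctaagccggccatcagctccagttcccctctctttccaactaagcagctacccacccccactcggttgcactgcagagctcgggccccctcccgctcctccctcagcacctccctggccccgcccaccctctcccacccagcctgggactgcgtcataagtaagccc

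The words searched were AGATAA and AGATAG and, with the other first letter, TGATAA and TGATAG, on both strands, in windows of 250 bases before to 50 after each start. A match was present in 29.8% of 32851 promoters and in 9 of 32 promoters of the genes described here, or 28.1%, which belong to 26 of the 41 genes. Gata3 itself had 55.0, 51.3 and 17.8 RPKM in Vismodegib and 82.3, 16.0 and 93.4 RPKM in DMSO, in the order of replicates 1, 2 and 3. The relation between the levels of Gata3 and Itm2a was not tested.

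**Figure D2:**
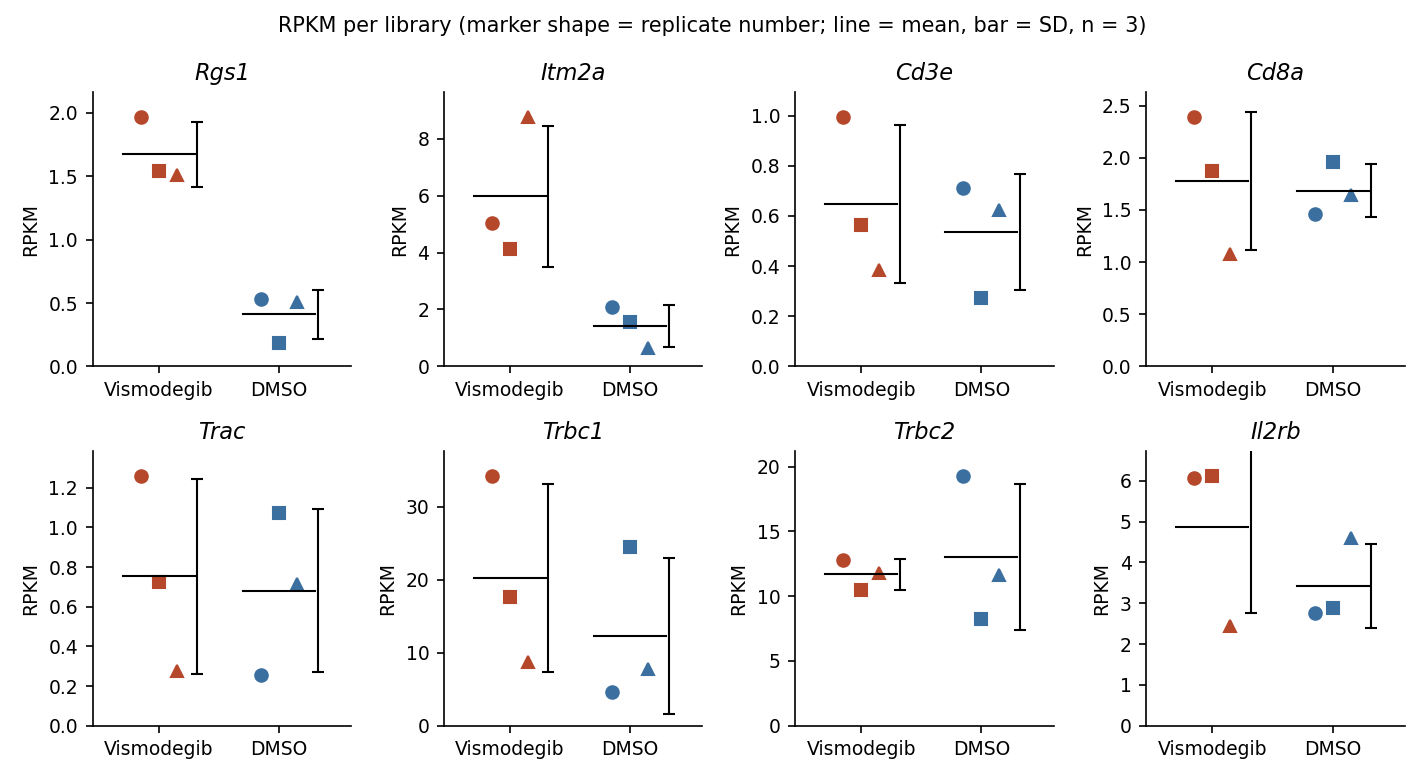
RPKM of 8 genes in each library, Vismodegib left of DMSO, with marker shape for the replicate number, a line at the mean and a bar for the SD (n = 3). Rgs1 at 1.51 to 1.97 RPKM and Itm2a at 4.11 to 8.76 RPKM in Vismodegib lie above all DMSO libraries, and the groups overlap for Cd3e, Cd8a, Trac, Trbc1, Trbc2 and Il2rb.

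RNA of the T cell receptor complex did not separate the groups. Of its 7 genes, 6 were tested, 3 with differences above 0 and 3 below, and 0 passed. Cd3e, a signalling chain of CD3 (ENSMUSG00000032093.7, mm10 chr9:44998740-45009627, minus strand), was at 0.995, 0.562 and 0.385 RPKM in Vismodegib and at 0.713, 0.274 and 0.624 RPKM in DMSO, in the order of replicates 1, 2 and 3. Vismodegib replicate 1 was highest and DMSO replicate 2 lowest, with the other libraries interleaved. The difference was 0.14 (95% interval -0.55 to 0.82, adjusted p = 1 by limma).

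The other CD3 chains overlapped between the groups as well. Cd3d averaged 2.62 ± 0.328 RPKM in Vismodegib and 3.11 ± 1.26 RPKM in DMSO, and Cd3g averaged 2.14 ± 0.424 RPKM in Vismodegib and 2.22 ± 0.466 RPKM in DMSO (SD, n = 3 each). Cd247, the zeta chain that carries most of the signalling motifs, was below the filter at 0.243 ± 0.0909 RPKM in Vismodegib and 0.171 ± 0.0383 RPKM in DMSO. Summed over these 4 chains, the libraries held 6.53, 5.89 and 4.55 RPKM in Vismodegib and 8.14, 4.86 and 5.10 RPKM in DMSO. DMSO replicate 1 was highest and Vismodegib replicate 3 lowest, and a two-sided exact permutation test gave p = 0.8.

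Trac, the constant part of the alpha chain (ENSMUSG00000076928.5, mm10 chr14:54220521-54224206, plus strand), was at 1.26, 0.726 and 0.277 RPKM in Vismodegib and at 0.257, 1.07 and 0.714 RPKM in DMSO replicates 1, 2 and 3. Both groups spanned nearly the same range, and the difference was 0.07 (SE 0.38). Trbc1, the first of the beta chain constant genes (ENSMUSG00000076490.6), was at 34.2, 17.6 and 8.77 RPKM in Vismodegib and at 4.56, 24.5 and 7.74 RPKM in DMSO. Vismodegib replicate 1 and DMSO replicate 2 were high and DMSO replicate 1 low. Its difference of 0.83 (SE 0.63, 95% interval -0.61 to 2.27, adjusted p = 1) was the largest after Itm2a and Rgs1, and lay between 0.33 without DMSO replicate 1 and 1.48 without DMSO replicate 2. Leaving out Vismodegib replicate 1 gave 0.35, and leaving out Vismodegib replicate 3 gave 1.31.

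Trbc2, its neighbour on chromosome 6 (ENSMUSG00000076498.2), was steadier, at 12.8, 10.5 and 11.8 RPKM in Vismodegib and at 19.3, 8.25 and 11.6 RPKM in DMSO. DMSO replicate 1 held the most Trbc2 and the least Trbc1. As a share of the summed beta chain RNA, Trbc1 made up 72.7%, 62.8% and 42.7% in Vismodegib replicates 1, 2 and 3 and 19.2%, 74.8% and 40.0% in DMSO replicates 1, 2 and 3. The sum of both genes was 47.0, 28.1 and 20.5 RPKM in Vismodegib and 23.8, 32.7 and 19.3 RPKM in DMSO. It varied less between DMSO libraries than Trbc1 alone, with a difference of 0.28 and exact permutation p = 0.6.

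How reads divide between Trbc1 and Trbc2 depends on stretches where the copies differ, so those in exons 1 to 3 are shown. Both annotated genes run on past exon 3, and that part was not compared. Over the coding exons 1 to 3, 500 bases in GENCODE M21 (GRCm38), the annotated transcripts of Trbc1 and Trbc2 were 96.2% identical with 19 differences, and the longest identical run was 259 bases. Exon 1, at chr6:41538218-41538592 for Trbc1 and chr6:41546730-41547104 for Trbc2 on the plus strand, is 375 bases long and holds a single difference, C260A, given with the Trbc1 base first and counted from the first base of exon 1. The 60 bases around it read as follows, with the differing base in capitals.
Trbc1: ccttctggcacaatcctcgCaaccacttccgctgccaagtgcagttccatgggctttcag
Trbc2: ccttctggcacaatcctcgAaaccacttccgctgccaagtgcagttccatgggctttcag

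The remaining 18 differences fall in the 125 bases of exons 2 and 3, at chr6:41539114-41539335 for Trbc1 and chr6:41547610-41547878 for Trbc2 with the introns between, which encode the membrane end of the chain. Capitals again mark the differing bases.
Trbc1: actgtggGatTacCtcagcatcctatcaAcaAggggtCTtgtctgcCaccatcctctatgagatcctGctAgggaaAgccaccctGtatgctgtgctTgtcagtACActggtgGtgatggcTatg
Trbc2: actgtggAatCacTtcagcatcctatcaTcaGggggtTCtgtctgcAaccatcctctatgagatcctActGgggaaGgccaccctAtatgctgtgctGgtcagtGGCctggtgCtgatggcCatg

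Most of exon 1 therefore gives reads that match both genes, and how the authors' counting placed such reads is not given in the sources used here, so the level of each copy is uncertain. The summed beta chain RNA exceeded Trac by a factor of 37.3, 38.7 and 74.2 in Vismodegib replicates 1, 2 and 3 and by 92.7, 30.5 and 27.1 in DMSO replicates 1, 2 and 3. Alpha and beta constant genes thus differed widely in RPKM, a measure per length, in every library. Trac rested on an estimated 9.01 to 49.0 reads, and with the counting unknown the size of this gap is uncertain too.

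Coreceptor RNA was mostly that of CD8. Cd8a, the alpha chain of the coreceptor of cytotoxic T cells (ENSMUSG00000053977.13, mm10 chr6:71373427-71379173, plus strand), was at 2.39, 1.87 and 1.08 RPKM in Vismodegib and at 1.46, 1.96 and 1.64 RPKM in DMSO replicates 1, 2 and 3. The DMSO values lay inside the Vismodegib range. The difference was 0.02 (95% interval -0.64 to 0.69). It was -0.04 with median-ratio scaling and -0.06 with quantile scaling. Cd8b1, the beta chain, averaged 3.78 ± 0.554 RPKM in Vismodegib and 4.15 ± 1.25 RPKM in DMSO (SD, n = 3 each).

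Cd4, the coreceptor of helper and regulatory T cells (ENSMUSG00000023274.14, mm10 chr6:124864692-124888221, minus strand), was at 0.685, 0.134 and 0.517 RPKM in Vismodegib and at 0.497, 0.164 and 0.760 RPKM in DMSO replicates 1, 2 and 3. Replicate 2 was lowest in both groups, and the exact permutation test gave p = 0.8. Of the other surface proteins, Cd2, which binds CD48 in the mouse, was at 1.05, 0.565 and 0.386 RPKM in Vismodegib and at 1.01, 0.758 and 0.909 RPKM in DMSO. The highest and the lowest Cd2 value were both in Vismodegib, and the difference was -0.29 (SE 0.28), between -0.52 without Vismodegib replicate 1 and -0.11 without Vismodegib replicate 3. Thy1 was at 50.7, 34.1 and 36.7 RPKM in Vismodegib and at 27.7, 39.0 and 36.2 RPKM in DMSO. Its groups overlapped, with a difference of 0.23 (95% interval -0.39 to 0.85, and 0.06 without Vismodegib replicate 1 to 0.34 without Vismodegib replicate 2) beside the fibroblast sums given above, whose part in it was not tested. Cd5 and Cd6, receptors that dampen T cell receptor signals, were below the filter, at 0.181 ± 0.0476 and 0.199 ± 0.0946 RPKM in Vismodegib and 0.160 ± 0.0703 and 0.218 ± 0.120 RPKM in DMSO.

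The 3 proximal signalling genes had differences below 0, and 0 of them passed the test. Lck was at 2.19, 1.35 and 1.28 RPKM in Vismodegib and at 2.63, 2.09 and 1.48 RPKM in DMSO replicates 1, 2 and 3. Replicate 1 was highest in both groups. The Lck difference was -0.28 (95% interval -0.95 to 0.38), between -0.47 without Vismodegib replicate 1 and -0.13 without DMSO replicate 1, and it was 0.02 with library weights. Zap70 was at 0.939, 0.649 and 0.997 RPKM in Vismodegib and at 1.42, 1.14 and 0.752 RPKM in DMSO. Its lowest library was Vismodegib replicate 2, the groups overlapped, and the difference was -0.22 (SE 0.27), between -0.39 without DMSO replicate 3 and -0.08 without DMSO replicate 1. Lat was at 2.90, 1.31 and 2.84 RPKM in Vismodegib and at 3.54, 2.61 and 2.51 RPKM in DMSO. Vismodegib replicate 2 was again lowest, and the difference of -0.29 (SE 0.32) became 0.004 without that library and -0.45 without Vismodegib replicate 1.

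Costimulatory receptors gave no separation either. Tnfrsf4, which encodes OX40, was at 0.897, 0.429 and 0.985 RPKM in Vismodegib and at 0.841, 1.01 and 1.50 RPKM in DMSO replicates 1, 2 and 3. Vismodegib replicate 2 was lowest and DMSO replicate 3 highest, with a difference of -0.36 (SE 0.29), between -0.49 without Vismodegib replicate 3 and -0.15 without Vismodegib replicate 2. Tnfrsf18, which encodes GITR, averaged 2.43 ± 0.830 RPKM in Vismodegib and 2.11 ± 0.306 RPKM in DMSO (SD, n = 3 each). Icos averaged 0.182 RPKM in Vismodegib and 0.132 RPKM in DMSO, and was lowest in DMSO replicate 1. Cd28 lay between 0.0188 and 0.0727 RPKM, with 1 library under 3 reads. Cd27 was listed at 0 in Vismodegib replicate 3 and was under 3 reads in 2 libraries.

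Transcription factors of naive, helper and cytotoxic cells overlapped between the groups. Tcf7, which encodes TCF1, a factor of naive and stem-like T cells, was at 1.38, 0.581 and 0.508 RPKM in Vismodegib and at 0.752, 0.266 and 0.336 RPKM in DMSO replicates 1, 2 and 3. Only DMSO replicate 1 reached into the Vismodegib range. The difference was 0.45 (SE 0.33, 95% interval -0.30 to 1.20, adjusted p = 1 by limma). Its DMSO mean was below the filter, so that Tcf7 entered the test only through Vismodegib. Without Vismodegib replicate 1 the difference was 0.17, and without DMSO replicate 1 it was 0.67. A gene on the other strand, A630014C17Rik, overlaps Tcf7. Eomes, a factor of NK cells and cytotoxic T cells, averaged 0.856 ± 0.503 RPKM in Vismodegib and 0.868 ± 0.180 RPKM in DMSO. Tbx21, its relative known as T-bet, averaged 0.264 ± 0.0977 RPKM in Vismodegib and 0.253 ± 0.132 RPKM in DMSO, below the filter.

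Foxp3, the defining factor of regulatory T cells, was near the floor of detection. It (ENSMUSG00000039521.13, mm10 chrX:7573644-7595245, plus strand) had 0.185, 0.0617 and 0.0554 RPKM in Vismodegib replicates 1, 2 and 3. In DMSO it had 0.133 and 0.0698 RPKM in replicates 1 and 3, and its value in replicate 2 was 0 when rounded to any count of reads. For its length, 3 reads correspond to 0.0135 to 0.0225 RPKM, and a difference below that size was not detectable at this depth. The exact permutation test gave p = 0.7. Ccdc22, Gm36995 and Ppp1r3f overlap Foxp3 on the other strand, and Flicr overlaps it on the same strand. The use of strand in counting is not given in the sources used here. Ikzf2, which encodes Helios, averaged 0.478 ± 0.121 RPKM in Vismodegib and 0.337 ± 0.132 RPKM in DMSO, with exact permutation p = 0.2.

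Gata3 varied widely within each group, as the values above show. Its low libraries were Vismodegib replicate 3 and DMSO replicate 2, and the difference of -0.43 (95% interval -1.99 to 1.14) lay between -1.23 without DMSO replicate 2 and 0.09 without Vismodegib replicate 3. It was 0.02 without DMSO replicate 3 and -0.07 without DMSO replicate 1, and -0.71 and -0.66 without Vismodegib replicates 1 and 2. Epithelial markers summed to 2600 to 2686 RPKM in Vismodegib and 1644 to 2716 RPKM in DMSO. Of the 8, 6 had differences above 0, with a median of 0.76, 4 had an unadjusted p under 0.05, and Cldn4, Krt7 and Elf3 were higher in Vismodegib without overlap, while 0 passed the adjusted threshold. Of all tested genes, 58.4% were above 0, 2.25% had an unadjusted p under 0.05 by limma and 4.29% were higher without overlap. Markers of type 2 innate lymphoid cells summed to 0.835 to 1.13 RPKM in Vismodegib and 0.531 to 0.862 RPKM in DMSO. The part of either kind of cell in the Gata3 level was not tested. Genes on the other strand also overlap Gata3, Cd3e, Cd247, Cd27, Zap70, Eomes, Ikzf2 and Tnfrsf18, so that these levels are uncertain. Annotated genes on the same strand overlap Gata3, Cd3e, Cd247, Cd27, Ikzf2, Foxp3, Ifng, Lck, Lat, Icos, Il2ra, Tcf7 and Klrb1c. That overlap does not depend on the use of strand, and these levels are uncertain too. Overlap was read from the spans of the genes, introns included.

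NK receptor RNA was low in both groups, and 1 of 5 genes was tested. Klrd1, which encodes CD94, the partner of inhibitory and activating NKG2 chains, was at 2.44, 2.05 and 2.52 RPKM in Vismodegib and at 2.83, 0.919 and 1.54 RPKM in DMSO replicates 1, 2 and 3. DMSO replicate 1 was above all Vismodegib libraries and the other DMSO libraries were below them. The difference was 0.41 (SE 0.34), and lay between 0.11 without DMSO replicate 2 and 0.73 without DMSO replicate 1. Ncr1, which encodes NKp46 and marks NK cells (ENSMUSG00000062524.4, mm10 chr7:4337724-4345164, plus strand), was at 0.390, 0.106 and 0.202 RPKM in Vismodegib and at 0.121, 0.130 and 0.0803 RPKM in DMSO. Vismodegib replicate 2 lay among the DMSO libraries, and the exact permutation test gave p = 0.3.

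Klrk1, which encodes the activating receptor NKG2D, averaged 0.401 ± 0.0937 RPKM in Vismodegib and 0.413 ± 0.143 RPKM in DMSO. Klrb1c, of the NKR-P1 family, averaged 0.103 RPKM in Vismodegib and 0.0629 RPKM in DMSO. Klrg1, an inhibitory receptor of differentiated cells, was listed at 0 in Vismodegib replicates 1 and 3 and in DMSO replicate 1, and was at 0.265 RPKM in Vismodegib replicate 2 against 0.244 and 0.0699 RPKM in DMSO replicates 2 and 3.

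Effector genes overlapped between the groups, and Nkg7 held most of their RNA. Ifng, the interferon gamma gene (ENSMUSG00000055170.4, mm10 chr10:118441046-118445892, plus strand), was at 1.65, 1.63 and 1.11 RPKM in Vismodegib and at 1.67, 1.13 and 1.53 RPKM in DMSO replicates 1, 2 and 3. Each group had 1 library near 1.1 RPKM, and the difference was 0.01 (95% interval -0.58 to 0.60). It was -0.05 with median-ratio scaling and -0.08 with quantile scaling. Nkg7, a protein of cytotoxic granules, averaged 13.7 ± 3.31 RPKM in Vismodegib and 15.8 ± 2.19 RPKM in DMSO (SD, n = 3 each). Cst7, which encodes the protease inhibitor cystatin F, averaged 2.57 ± 0.705 RPKM in Vismodegib and 2.68 ± 0.269 RPKM in DMSO. Fasl averaged 0.233 RPKM in Vismodegib and 0.260 RPKM in DMSO, below the filter.

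Of the interleukin 2 receptor chains, Il2rb, the signalling chain that NK cells and T cells also use for interleukin 15, was at 6.08, 6.11 and 2.44 RPKM in Vismodegib and at 2.77, 2.89 and 4.61 RPKM in DMSO replicates 1, 2 and 3. Vismodegib replicates 1 and 2 were above all DMSO libraries and Vismodegib replicate 3 below them. Its difference was 0.39 (SE 0.37). It was 0.78 without Vismodegib replicate 3 and 0.60 without DMSO replicate 3, against 0.20 without Vismodegib replicate 1 and 0.19 without Vismodegib replicate 2. Il2ra, the chain that raises affinity on regulatory and activated T cells, averaged 0.139 ± 0.0540 RPKM in Vismodegib and 0.143 ± 0.0899 RPKM in DMSO, below the filter.

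**Figure D3:**
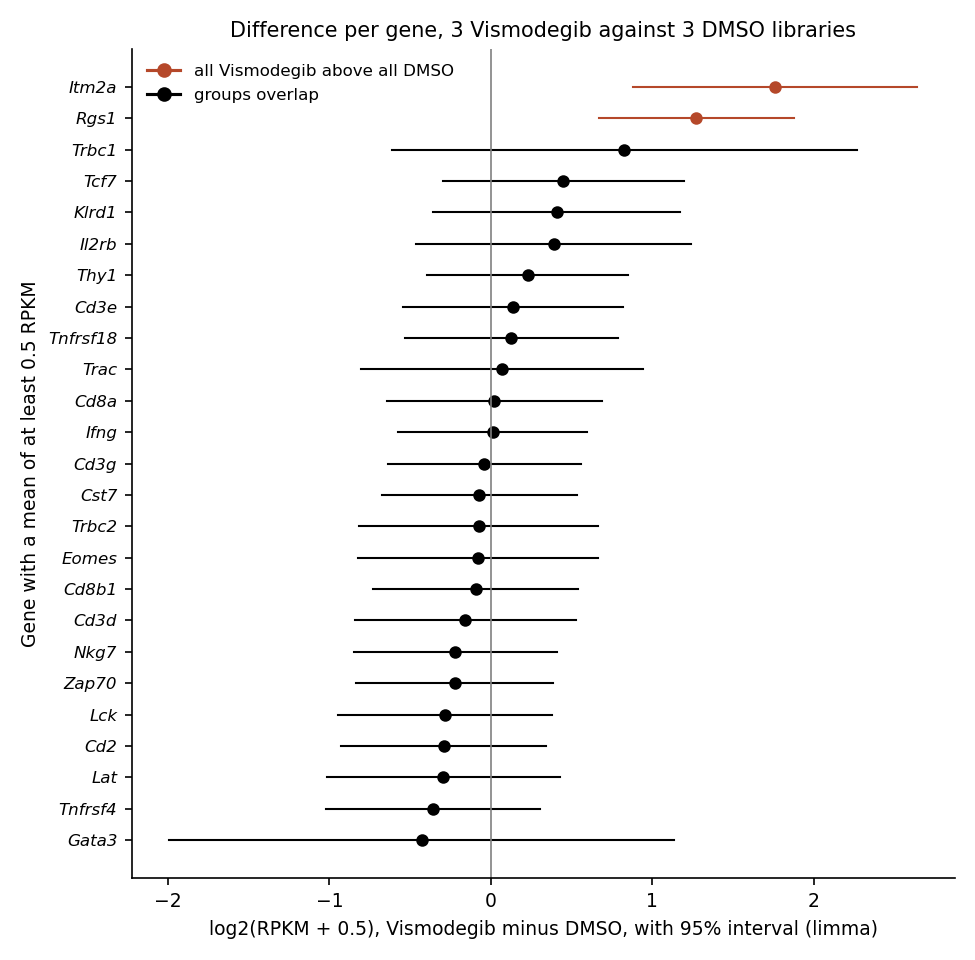
Difference of the 25 tested genes on the log2(RPKM + 0.5) scale, Vismodegib minus DMSO, with limma's 95% interval. Itm2a at 1.76 and Rgs1 at 1.27 have intervals above 0, and the intervals of the other 23 genes include 0.

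Ratios between genes were also taken within each library. In 8 ratios of lineage genes, computed with 0.1 RPKM added to each gene, the groups overlapped throughout and exact permutation p-values ran from 0.3 to 0.9, each 0.9 after Benjamini-Hochberg adjustment over the 8. The added 0.1 RPKM is of the size of the Foxp3 and Ncr1 levels, and with 0.5 RPKM added the Foxp3 to Cd4 difference was 0.12 in place of 0.37 and the Ncr1 to Cd3e difference 0.11 in place of 0.35. The log2 ratio of Cd8a to Cd4 was 1.67, 3.08 and 0.93 in Vismodegib and 1.39, 2.96 and 1.02 in DMSO replicates 1, 2 and 3. The Cd8a level was thus above that of Cd4 in all 6 libraries, most of all in replicate 2 of each group. The log2 ratio of Ncr1 to Cd3e was -1.16, -1.68 and -0.68 in Vismodegib and -1.88, -0.70 and -2.01 in DMSO, so that Ncr1 was below Cd3e in every library. The NK receptor gene Klrd1 went the other way. Its log2 ratio to Cd3e was 1.21, 1.70 and 2.43 in Vismodegib and 1.85, 1.44 and 1.18 in DMSO. The log2 ratio of Il2ra to Il2rb lay between -4.64 and -3.55 over the 6 libraries.

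**Figure D4:**
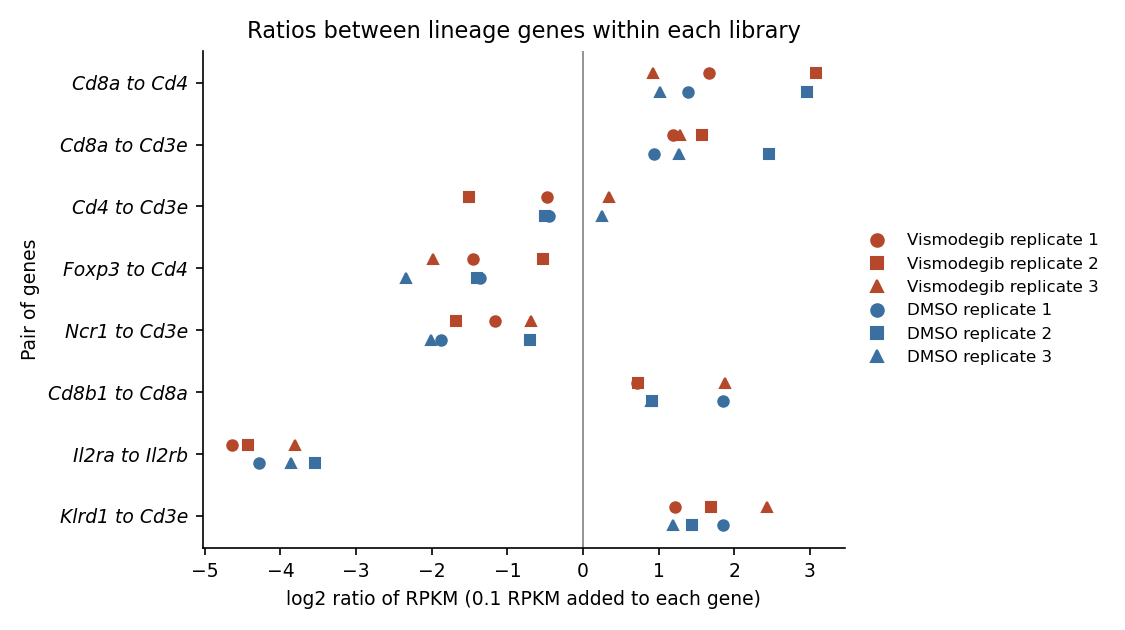
Log2 ratio of RPKM for 8 pairs of genes in each library, Vismodegib above DMSO within each pair, with marker shape for the replicate number. The groups overlap for every pair, and Cd8a to Cd4 lies between 0.93 and 3.08 in all 6 libraries.

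Libraries of the same group also differed from each other. Of the 41 genes, 14 were highest in DMSO replicate 1 and 13 in Vismodegib replicate 1, while 1 was highest in DMSO replicate 2 and 13 were lowest there. Such counts were not made over all genes, so these describe the 41 only. The median deviation of the 25 tested genes from their means over the 6 libraries was 0.24, -0.01 and -0.11 in Vismodegib replicates 1, 2 and 3 and 0.18, 0.003 and -0.02 in DMSO replicates 1, 2 and 3. For all tested genes it was 0.18, 0.003 and -0.10 in Vismodegib and -0.16, 0.04 and 0.03 in DMSO. DMSO replicate 1 was thus the library where these genes stood farthest from the rest, 0.35 above its median of all genes. Without it the median difference of the 25 genes was 0.08, against -0.04 with all libraries.

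**Figure D5:**
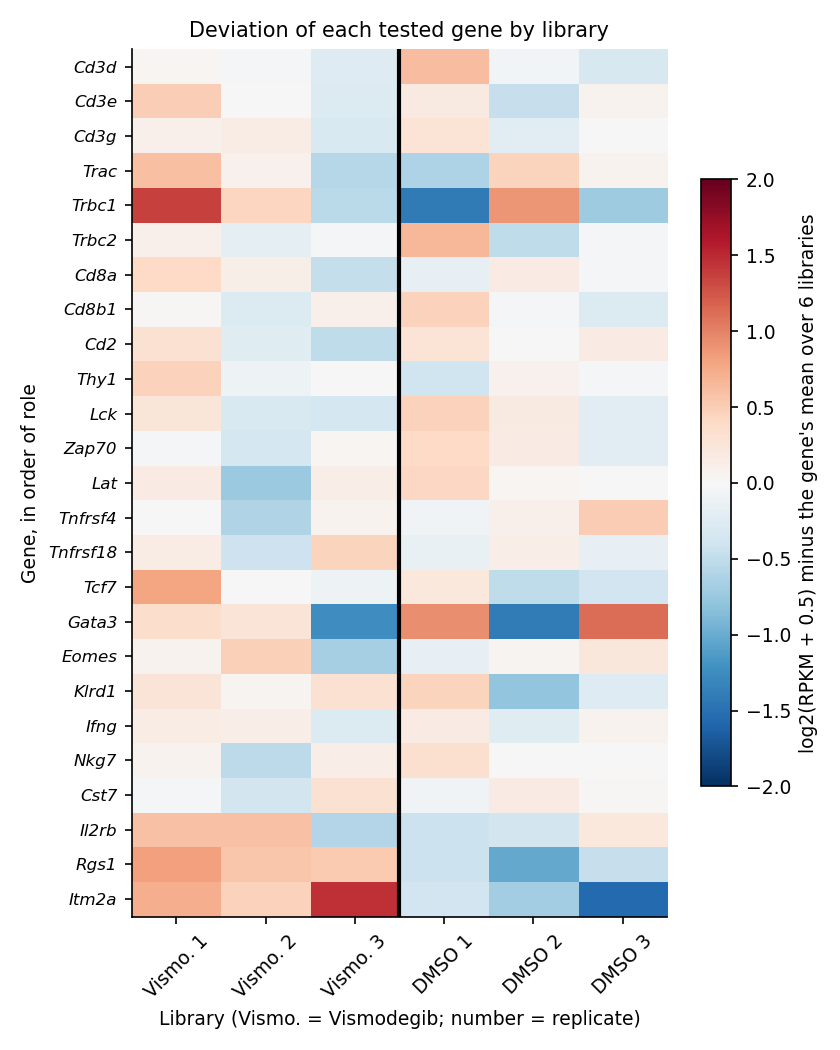
Log2(RPKM + 0.5) of the 25 tested genes minus each gene's mean over the 6 libraries, with the Vismodegib libraries left of the line and the DMSO libraries right of it. Rgs1 and Itm2a are above their means in all 3 Vismodegib libraries and below them in all 3 DMSO libraries, and Trbc1 and Gata3 vary most within a group.

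Other lists of T and NK cell genes had 0 genes past the adjusted threshold by limma in each and 1, Prf1, at an unadjusted p under 0.05, against 2.25% of all tested genes. Groups that did not overlap, found here for Prf1, Alcam, Sit1 and Lta, made up 5.03% of all tested genes and 5.57% of all genes below the filter. Of 25 further genes of T cell receptor signalling, 9 were tested, 3 above 0 and 6 below, with a median of -0.05 against the 0.05 of all genes tested. Those with the smallest p were Ptpn22, a phosphatase that restrains the receptor, at 0.584 ± 0.0900 RPKM in Vismodegib and 1.89 ± 1.32 RPKM in DMSO, Plcg1, with a difference of 0.32, and Nfatc1, with a difference of 0.16. The untested adaptor Sit1 was the list's gene with groups apart, at 0.0185 to 0.152 RPKM in Vismodegib and 0.215 to 0.592 RPKM in DMSO.

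Of 10 genes of naive and memory T cells, 4 were tested, 3 above 0 and 1 below, with a median of 0.26. S1pr1, the receptor by which lymphocytes leave lymph nodes, had a difference of 0.69, Ccr7, the chemokine receptor by which they enter them, 0.48 and Ly9 -0.07. Of 7 genes of gamma delta T cells, 2 were tested, Sox13 with a difference of 0.37 and Trgc2 with -0.23. The delta chain gene Trdc lay between 0 and 0.128 RPKM.

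Among 13 other NK and cytotoxic genes, 5 were tested, 3 above 0 and 2 below, with a median of 0.38. Prf1, which encodes the pore-forming granule protein perforin, was at 1.44, 1.78 and 1.71 RPKM in Vismodegib and at 2.28, 3.45 and 3.25 RPKM in DMSO replicates 1, 2 and 3. All 3 Vismodegib libraries were below all 3 DMSO libraries, opposite in direction to Rgs1 and Itm2a. Its difference was -0.69 with adjusted p = 1 by limma. Sh2d1b1, an adaptor of NK receptors, had a difference of 0.65 and the chemokine gene Xcl1 0.48.

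Of 22 ligands and partner chains, 13 were tested, 7 above 0 and 6 below, with a median of 0.03. Alcam, the ligand of Cd6, was at 6.56, 7.19 and 4.99 RPKM in Vismodegib and at 4.47, 2.13 and 4.78 RPKM in DMSO, without overlap and with a difference of 0.70. Cd86, a ligand of Cd28, had a difference of 0.46, and Ulbp1, a ligand of Klrk1 that reached the filter only through DMSO, -0.35. Of 12 T cell cytokine genes, 3 were tested and all had differences above 0, with 0.56 for Il10, 0.53 for Csf2 and 0.06 for Ltb. The untested Lta was at 0.525 to 0.955 RPKM in Vismodegib and 0.116 to 0.518 RPKM in DMSO, without overlap.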

How the data were processed

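RNA of 6 tumour samples, 3 Vismodegib and 3 DMSO by their titles, was sequenced. The authors deposited 1 table of RPKM values. The submitters' processing notes name STAR, HISAT2, Partek, SAMtools, cutadapt and bcl2fastq 2.17, and mm10 as the genome. What each tool did, which annotation was used and whether strand was counted is not given in the sources used here. Since RPKM is relative to the total of a library, a value moves with the RNA of all other genes, and near-identical or overlapping genes are uncertain. Depth was recovered from the steps in the values of 6992 genes with 1 GENCODE M21 transcript. Of low values, up to 20 reads, 83.6% to 85.2% were then whole within 0.02 reads. Reads of a gene were computed from its RPKM, this depth and its longest GENCODE M21 transcript. The length behind the deposited values is not given in the sources used here, so these reads are estimates. Limits of 3 reads cover counting error only.

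The test took 11818 genes whose mean over the 6 libraries reached 0.5 RPKM, and ran limma 3.58.1 under R 4.3.3 on log2(RPKM + 0.5), two-sided, with eBayes and a trend and with group as the only term. Benjamini-Hochberg adjustment covered all of them. A positive difference means higher in Vismodegib, and changes of low genes are understated by the added 0.5 RPKM. Genes below the filter, sums and ratios were compared by exact permutation tests on log2 values (scipy 1.17.1). The limma fit was tested on simulated data with independent normal values. The genes and lists were chosen with earlier results of these data known, and Rgs1 and Itm2a had already stood out there, so their differences here are not independent evidence. Values of every library are given for the 12 tested genes with the smallest p and for Cd3e, Cd4, Cd8a, Trac, Foxp3, Ncr1, Ifng, Rgs1 and Itm2a, with Trbc2, Gata3 and Klrg1 added after their values were seen; of other lists, up to 3 genes with the smallest p are named, with further genes added where their groups did not overlap. Alternatives changed the pseudocount, filter, scaling, eBayes setting, library weights, replicate block, GC and length trends, or left out 1 library. Genes with sequence in RefSeq promoter tables numbered 26 of 41.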

Additional observations from a re-analysis of the deposited data

How the results depend on the processing

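Of 442 differences of single genes and ratios under the alternatives, 404 kept direction and side of the threshold, 36 reversed sign in 15 genes, the untested Il2ra among them, and 2, Rgs1 and Itm2a with library weights, came to pass the threshold. Library weights gave 420 genes past the threshold instead of 0, 2 of them described here, and the replicate block gave 1 gene and changed no other call. Deviations from the group means correlated at 0.003, 0.038 and -0.305 between same-numbered libraries and at -0.231 to 0.303 between the others. With 3 libraries per group, these values cannot show whether the numbers pair the samples. Leaving out 1 library gave 0 to 19 genes, the 19 without DMSO replicate 1, and 0 of the genes described. The median difference of the tested genes, -0.04, turned sign to 0.06 with library weights and ran from -0.13 to 0.10 across left-out libraries. Median-ratio scaling gave -0.0367 for Cd8a and -0.0473 for Ifng, and quantile scaling -0.0249 for Cd3e, -0.0550 for Cd8a, -0.0493 for Trac and -0.0753 for Ifng. Library weights gave 0.24 for Cd3d, 0.0869 for Cd3g, 0.10 for Cd8b1, 0.0241 for Lck and 0.0177 for Eomes. Removal of GC and length trends gave -0.0425 for Ifng, and a pseudocount of 0.1 gave 0.0285 for Il2ra. With 1 library left out, differences ran from -0.36 to 0.11 for Cd3d, -0.0712 to 0.31 for Cd3e, -0.15 to 0.10 for Cd3g, -0.17 to 0.27 for Cd8a, -0.26 to 0.11 for Cd8b1, -0.22 to 0.38 for Trac, -0.35 to 0.24 for Trbc2, -0.11 to 0.15 for Ifng, -0.34 to 0.23 for Eomes, -1.23 to 0.0877 for Gata3, -0.45 to 0.00377 for Lat, -0.24 to 0.0933 for Cst7 and -0.0640 to 0.36 for Tnfrsf18. The cause of these changes was not tested. Exact permutation tests of 3 libraries against 3 cannot reach 0.05, and genes under 3 reads give no usable difference at this depth.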
